A study of Mus musculus with 4 samples.

Results

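The neuronal cytoskeleton and pan-neuronal genes described here are 10 genes chosen by name from the 22328 genes of the deposited mouse tables: the neurofilament genes Nefl, Nefm and Nefh, the related filament gene Ina, the microtubule genes Map2, Mapt and Stmn2, the growth cone gene Gap43, the splicing factor gene Rbfox3 and the deubiquitinase gene Uchl1. Each name matched 1 row of each table, and all 10 rows held reads in every library. Poly(A) RNA was sequenced from 4 samples, each the only library of its group. HT22 SUP and HT22 CON were cultures of HT22, an immortalised mouse line of hippocampal neuronal origin, grown in high-glucose medium with serum and given choline chloride at 70 µM or 5 µM for 48 h. F1m-GCS and F1m-CON were hippocampi of offspring whose mothers ate, between embryonic day 9 and birth, a diet holding 5 g/kg or 1.1 g/kg of choline chloride. The offspring of both groups had a basal diet after birth, and mood-related behaviour was tested at 2 months of age. The sources used here do not give the strain, the age at dissection or the number of animals behind each hippocampus library.

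Neurofilaments are the intermediate filaments of neurons. They are built from light, medium and heavy chains together with alpha-internexin, and they give large axons their calibre. Microtubule-associated proteins such as MAP2 in dendrites and tau in axons bind and stabilise microtubules, while stathmins destabilise them. These proteins, with the nuclear antigen NeuN and the hydrolase UCHL1, are widely used to mark neurons in sections and cultures, and the comparison of HT22 cells with hippocampus asks how much of this neuronal set the line expresses.

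The 4 libraries held 13192007 (HT22 SUP), 18305096 (HT22 CON), 30265820 (F1m-GCS) and 31175015 (F1m-CON) reads in genes. Between 63.1% and 79.4% of uniquely mapped reads fell in genes, with HT22 SUP at the low end. A level is given as reads, as CPM (counts per 1e6 reads in genes) or, to compare genes with each other, as the authors' RPKM, which is per kilobase of coding length. Hippocampus and HT22 libraries come from separate tables, so levels set across them are raw counts side by side, a cell line against a tissue. Because no group has a second library, replicate spread is unknown and the conditions were not tested. The 95% intervals are exact conditional intervals of a ratio of counts, and they cover counting error only. In hippocampus tissue, fewer cells of a type and less RNA per cell cannot be told apart.

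In each hippocampus library 9 of the 10 genes lay in the top 10% by CPM of genes with a read. Nefh was the lowest of the 10, at 64.2 CPM in F1m-GCS and 64.3 in F1m-CON. All 10 genes were scarce in both HT22 libraries. In CPM their sum was 75.3 in HT22 SUP and 26.6 in HT22 CON, against 3782 in F1m-GCS and 3657 in F1m-CON. As a share of the level pooled over both hippocampus libraries, the summed reads came to 2.02% in HT22 SUP (95% interval 1.90 to 2.15) and 0.715% in HT22 CON (0.653 to 0.782). Map2 supplied more of the HT22 reads than any of the other 9 genes, and without it the shares were 1.31% in HT22 SUP and 0.427% in HT22 CON. All 10 genes lay under 5% of the hippocampus level in HT22 SUP and all 10 in HT22 CON. Of the 14012 genes that reached 50 reads in any of the 4 libraries, 19.5% were that low in HT22 SUP and 20.8% in HT22 CON. Of the 5024 genes that reached 50 CPM in hippocampus, as all 10 genes did, the percentages were 20.7% in HT22 SUP and 21.2% in HT22 CON. The median share of the 10 genes was 1.17% in HT22 SUP and 0.461% in HT22 CON, beside medians of 65.2% in HT22 SUP and 67.8% in HT22 CON over those 5024 genes.

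**Figure D1:**
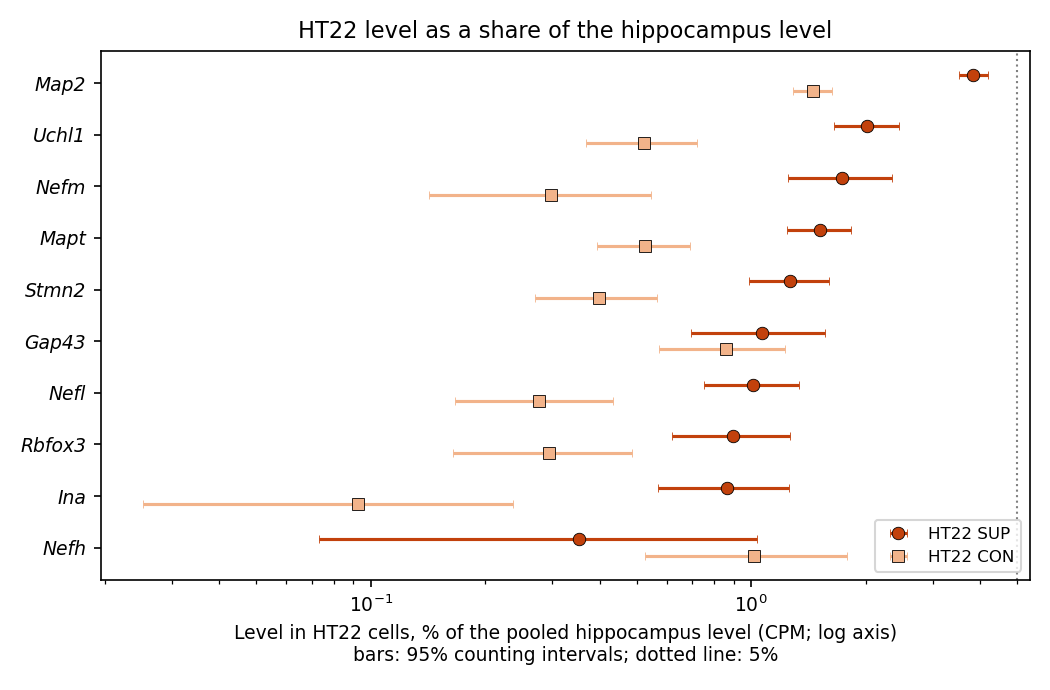
Level of each of the 10 genes in HT22 SUP (circles) and HT22 CON (squares) as a percentage of the level pooled over both hippocampus libraries, on a log axis, with 95% counting intervals. All points lie left of the dotted 5% line, and HT22 SUP lies right of HT22 CON for 9 genes, with Nefh as the exception.

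The promoters of Ina, Map2 and Uchl1 are shown because only these 3 of the 10 genes had a window that could be printed. The share intervals of each of these genes in the 2 HT22 libraries did not overlap, and both shares stayed far below the hippocampus level. Overlap of share intervals was not counted over all genes. By the related interval of the ratio of HT22 SUP to HT22 CON, 22.4% of 10854 measured genes lay wholly above 0 and 32.7% wholly below. RefSeq promoter windows of build GRCm38.p6 were matched for 4 of the 10 genes. That of Rbfox3 lies inside the annotated gene and is not printed. The plus-strand bases before the annotated gene start are given 5′ to 3′, from chr19:47014431-47014680 for Ina, chr1:66175079-66175272 for Map2 and chr5:66675871-66676090 for Uchl1. Capitals mark matches on either strand to GGGCGG, the core of a GC box, or to GGACAGC, the right part of the element bound by the repressor REST.
Ina: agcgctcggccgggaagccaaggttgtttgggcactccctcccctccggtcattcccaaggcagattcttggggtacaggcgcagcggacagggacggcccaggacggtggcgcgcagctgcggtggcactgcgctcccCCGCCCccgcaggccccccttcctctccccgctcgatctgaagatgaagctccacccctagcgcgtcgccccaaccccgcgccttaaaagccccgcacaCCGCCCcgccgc
Map2: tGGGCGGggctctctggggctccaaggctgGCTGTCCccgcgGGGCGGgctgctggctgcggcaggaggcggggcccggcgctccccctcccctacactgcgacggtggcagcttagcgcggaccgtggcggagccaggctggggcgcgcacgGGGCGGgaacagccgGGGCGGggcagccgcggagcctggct
Uchl1: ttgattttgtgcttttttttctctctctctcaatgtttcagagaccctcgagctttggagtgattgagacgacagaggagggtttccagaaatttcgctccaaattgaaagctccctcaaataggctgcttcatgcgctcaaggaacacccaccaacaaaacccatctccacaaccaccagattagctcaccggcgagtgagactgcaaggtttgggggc

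The windows differed in composition. The Map2 window had 22 CG dinucleotides in 194 bases and a GC content of 79.4%, and the Ina window had 25 in 250 bases and 70.8%. The Uchl1 window had 6 in 220 bases and 48.2%. GGGCGG matched at 4 places for Map2, at 2 for Ina and at 0 for Uchl1, and of 32851 promoter windows cut to the same lengths 23.6% held it at the length of Map2, 32.7% at that of Ina and 28.5% at that of Uchl1. GGACAGC matched at 1 place, for Map2, where 4.14% of windows hold it, against 5.28% at the length of Ina and 4.67% at that of Uchl1. TATAAA and TTCAGCACC, the left part of the REST element, were also searched on both strands and had 0 matches in each of the 3 windows. Of all windows of these lengths, 8.90% to 12.4% hold TATAAA and 0.256% to 0.301% hold TTCAGCACC. No match overlapped a match to another motif.

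Nefl, the light chain gene (ENSMUSG00000022055, chromosome 14 from 68083863 to 68089095, mm10), had 50 reads in HT22 SUP and 19 in HT22 CON, against 11093 in F1m-GCS and 11914 in F1m-CON. Its HT22 level was 1.01% of the hippocampus level in SUP (0.751 to 1.34) and 0.277% in CON (0.167 to 0.433). The intervals did not overlap, and the log2 ratio of HT22 SUP to HT22 CON was 1.76 (1.09 to 2.73). Nefm, the medium chain gene (ENSMUSG00000022054, chromosome 14 from 68082590 to 68124846), had 42 reads in HT22 SUP and 10 in HT22 CON, against 5852 in F1m-GCS and 5433 in F1m-CON. Its share was 1.73% in SUP (1.25 to 2.35) and 0.297% in CON (0.143 to 0.547), again without overlap. Nefl and Nefm lie on opposite strands, and in GENCODE M21 their exons share 1108 bases. The library kit does not mark strand, so reads from these bases cannot be assigned to either gene.

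Nefh, the heavy chain gene (ENSMUSG00000020396, chromosome 11 from 4938754 to 4948064), was the exception. It had 3 reads in HT22 SUP and 12 in HT22 CON, against 1944 in F1m-GCS and 2004 in F1m-CON. The shares of 0.354% in SUP (0.0730 to 1.04) and 1.02% in CON (0.527 to 1.78) had overlapping intervals, and the log2 ratio of -1.13 had an interval from -3.98 to 0.37. Ina, which encodes alpha-internexin (ENSMUSG00000034336, chromosome 19 from 47014698 to 47025327), had 27 reads in HT22 SUP and 4 in HT22 CON, against 7100 in F1m-GCS and 7419 in F1m-CON. This was the lowest share of any of the 10 genes in HT22 CON, 0.0925% (0.0252 to 0.237), and it was 0.866% in HT22 SUP (0.571 to 1.26). Exons of Ina share 456 bases with the antisense gene Nt5c2, so some of these reads cannot be told apart. Over the 4 filament genes together the reads numbered 122 in HT22 SUP, 1.08% of the hippocampus level, and 45 in HT22 CON, 0.286% of it.

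Map2, the dendritic microtubule-associated protein gene (ENSMUSG00000015222, chromosome 1 from 66175273 to 66442583), kept the largest share in HT22 cells. It had 530 reads in HT22 SUP and 278 in HT22 CON, against 34086 in F1m-GCS and 30184 in F1m-CON. These were 3.84% of the hippocampus level in SUP (3.52 to 4.18) and 1.45% in CON (1.29 to 1.63). The log2 ratio of HT22 SUP to HT22 CON was 1.41 (1.20 to 1.63), or 1.11 relative to genes of similar coding length. Map2 has the longest coding sequence of the 10 genes, 5487 bases, and the median ratio of its length group was 0.29 in HT22 cells. Mapt, which encodes tau (ENSMUSG00000018411, chromosome 11 from 104231390 to 104332090), had 108 reads in HT22 SUP and 52 in HT22 CON, against 16536 in F1m-GCS and 16639 in F1m-CON. Tau stood at 1.52% of the hippocampus level in SUP (1.24 to 1.83) and 0.526% in CON (0.393 to 0.690), with a log2 ratio of 1.5 (1.05 to 2.05).

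Stmn2, a neuron-specific stathmin of growth cones (ENSMUSG00000027500, chromosome 3 from 8509527 to 8561604), had 71 reads in HT22 SUP and 31 in HT22 CON, against 12541 in F1m-GCS and 13561 in F1m-CON. The shares were 1.27% in SUP (0.989 to 1.60) and 0.399% in CON (0.271 to 0.566), and the log2 ratio of the HT22 libraries was 1.61 (1.05 to 2.34). Gap43, which encodes a membrane protein of growth cones (ENSMUSG00000047261, chromosome 16 from 42248442 to 42340651), had 26 reads in HT22 SUP and 29 in HT22 CON, against 5584 in F1m-GCS and 5773 in F1m-CON. Gap43 was nearly level between the HT22 libraries, with overlapping shares of 1.07% in SUP (0.696 to 1.56) and 0.857% in CON (0.574 to 1.23) and a log2 ratio of 0.30 (-0.49 to 1.14).

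Rbfox3, which encodes the neuronal splicing factor detected as NeuN (ENSMUSG00000025576, chromosome 11 from 118489762 to 118911597), had 33 reads in HT22 SUP and 15 in HT22 CON, against 8463 in F1m-GCS and 8635 in F1m-CON. Its share was 0.899% in SUP (0.619 to 1.26) and 0.294% in CON (0.165 to 0.486). Uchl1, an abundant neuronal deubiquitinase gene (ENSMUSG00000029223, chromosome 5 from 66676098 to 66687231), had 103 reads in HT22 SUP and 37 in HT22 CON, against 11257 in F1m-GCS and 12454 in F1m-CON. With 2.02% in SUP (1.65 to 2.46) and 0.524% in CON (0.369 to 0.722), the intervals did not overlap, and the log2 ratio was 1.90 (1.41 to 2.55). Exons of Uchl1 share 295 bases with the antisense gene Uchl1os, and those of Map2 share 124 with Gm10558. The antisense genes Uchl1os and Gm10558 were not analysed here.

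Per kilobase, the order of the genes in hippocampus ran from Stmn2, with 607 RPKM in F1m-GCS and 640 in F1m-CON, and Uchl1, with 437 and 472, down to Nefh, with 15.5 and 15.6. Between them lay Gap43 with 213 RPKM in F1m-GCS and 215 in F1m-CON, Rbfox3 with 196 in each, Mapt with 192 and 188, Nefl with 178 and 186, Map2 with 162 and 140, Ina with 123 and 126, and Nefm with 60.0 and 54.4. For no pair of neighbours in this order did the RPKM values of the 2 hippocampus libraries overlap. In HT22 cells the same pair led, Uchl1 with 7.33 RPKM in SUP and 2.19 in CON and Stmn2 with 6.29 and 2.29, followed by Map2 with 4.62 and 2.02. Of the filament genes Nefl had the highest HT22 level per kilobase, with 1.47 RPKM in SUP and 0.463 in CON. Nefh in HT22 SUP was the lowest value of all, at 0.0439 RPKM.

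**Figure D2:**
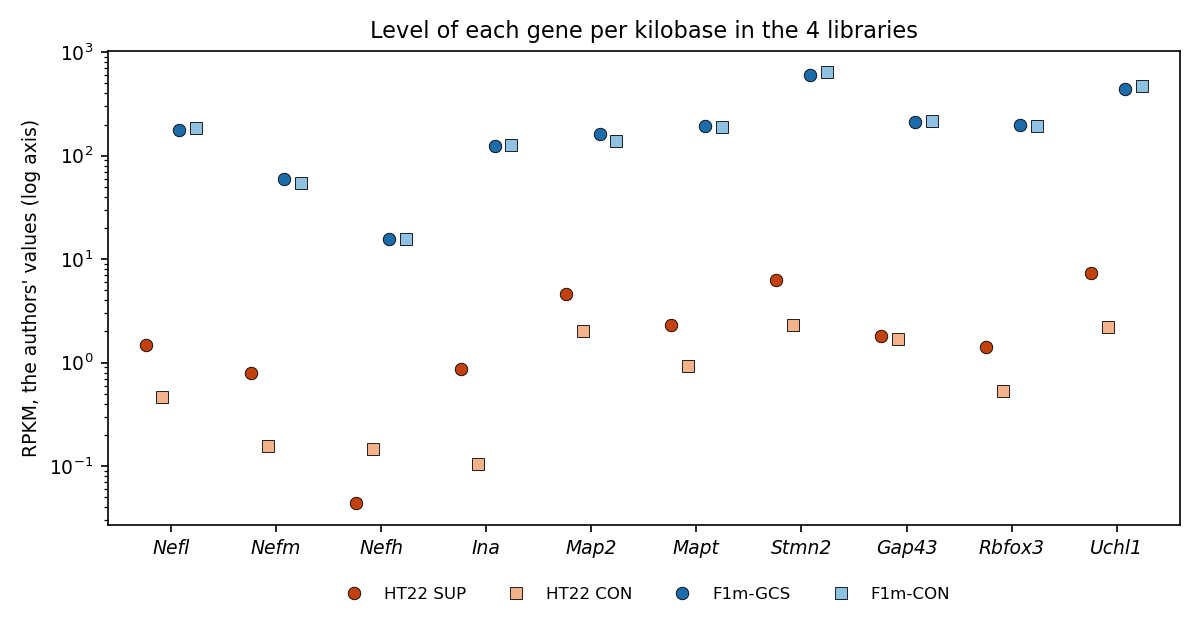
The authors' RPKM of the 10 genes in HT22 SUP, HT22 CON, F1m-GCS and F1m-CON, on a log axis, with 1 point per library. The hippocampus points lie between 15.5 and 640 RPKM and the HT22 points between 0.0439 and 7.33, and for each gene both HT22 points lie below both hippocampus points.

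In HT22 cells the 10 genes were mostly higher with the larger choline dose. A gene counted as measured where either library of a pair held 50 reads or more. Of the 10 genes 5 were measured in HT22 cells, and all 5 were at least 1.5-fold higher in SUP with an interval that excluded 0, namely Nefl, Map2, Mapt, Stmn2 and Uchl1. Of all 10854 genes measured in this way, 5.13% were higher and 2.89% lower by the same rule. The count of 5 is partly fixed by the read minimum, since Nefl, Stmn2 and Uchl1 reached 50 reads in SUP alone, Nefl with exactly 50, while Map2 and Mapt reached it in both libraries. A mean of at least 50 reads over both HT22 libraries was also used, a minimum added after the data were seen. By it Map2, Mapt, Stmn2 and Uchl1 were measured and all 4 were higher, beside 4.56% higher and 2.45% lower of 10655 genes. For Stmn2 and Uchl1 this mean still rested mostly on the reads in SUP. Over all 10 genes, 9 log2 ratios lay above 0, and the intervals of 8 excluded 0 on the higher side and those of 0 on the lower side, while 22.4% of all measured genes had such an interval on the higher side and 32.7% on the lower side. The median log2 ratio over the 10 genes, measured or not, was 1.55, beside -0.05 over all genes that were measured. The other 5 genes had fewer than 50 reads in both HT22 libraries. Their log2 ratios were 2.66 for Ina (1.72 to 5.21), 2.31 for Nefm (1.54 to 3.72), 1.48 for Rbfox3 (0.70 to 2.61) and those of Gap43 and Nefh given above. The SUP library was the shallower of the 2, and it held more reads than CON for 8 of the 10 genes.

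The share of genes that were higher in HT22 SUP was large among genes as scarce as these. For this comparison the read minimum and the share were both taken over the 2 HT22 libraries together. A gene with many reads in 1 library could still reach the minimum through that library. Of 245 genes that reached 50 CPM in hippocampus, lay under 5% of that level and had a mean of at least 50 HT22 reads, 67.3% were at least 1.5-fold higher in SUP and 0.816% lower, against 3.08% higher and 2.49% lower among the other 10410 genes with such a mean. Map2, Mapt, Stmn2 and Uchl1 belong to these 245. With no read minimum, 1017 genes besides the 10 reached 50 CPM in hippocampus and lay under 5% in each HT22 library, and 915 of them (89.97%) had a higher share in SUP than in CON. Pooled over these genes, HT22 SUP reached 1.48% and HT22 CON 0.796% of the hippocampus level. Their median shares were 1.06% in SUP and 0.452% in CON, close to the medians of the 10 genes. The SUP share was a median of 2.27 times the CON share over the 993 of these genes with a read in CON, and 3.12 times over the 10 genes, with a range from 0.347 for Nefh to 9.37 for Ina. In each HT22 library 9 of the 10 genes lay inside the central 80% of the class, between 0.328% and 3.15% in SUP and between 0.1001% and 1.89% in CON. Both groups of scarce genes were drawn from the HT22 levels that are compared, so these values describe them and test nothing.

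Reads of marker genes of other brain cells were also found in HT22 cells, and several were higher in SUP alongside the neuronal genes. The 10 oligodendrocyte markers summed to 24.1 CPM in HT22 SUP and 11.3 in HT22 CON, against 6641 in F1m-GCS and 6985 in F1m-CON, and 8 of 10 had a higher share in SUP. Mbp, the myelin basic protein gene, had 108 reads in HT22 SUP and 76 in HT22 CON (log2 ratio 0.97, 0.55 to 1.43). Mobp, another myelin gene, had 45 reads in SUP and 17 in CON. Olig2 was at 0 reads in SUP and Cldn11 at 0 in CON, where a count of 0 allows up to 0.227 CPM in SUP and 0.164 CPM in CON. Of the astrocyte markers, summing to 438 CPM in SUP and 389 in CON, 8 of 10 had a higher share in SUP. The glutamate transporter gene Slc1a2 had a log2 ratio of 1.27 and the aldolase gene Aldoc 0.89, while Slc1a3, a second glutamate transporter gene, had -0.26. Their part in the higher level of the 10 genes in HT22 SUP was not tested. For scale, 915 of the 1017 scarce genes described above (89.97%) had a higher share in SUP. The marker lists here and in the next paragraph were not restricted to genes so scarce, so their rates have another basis.

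The remaining marker lists held few reads for most of their genes. Microglia markers summed to 109 CPM in HT22 SUP and 126 in HT22 CON, with 4 of 10 higher as a share in SUP. The complement genes C1qb and C1qc were at 0 reads in CON, with 7 and 1 in SUP, and C1qa had 2 reads in SUP and 3 in CON. Endothelial markers summed to 121 CPM in SUP and 164 in CON, nearly all of it Ly6c1 with 1510 reads in SUP and 2952 in CON, and 7 of 10 were higher as a share in SUP. The junction gene Cldn5 had 6 reads in SUP and 1 in CON, and the transporter gene Slco1a4 had 6 and 9. Neural progenitor markers summed to 5.69 CPM in SUP and 3.66 in CON, and 7 of 10 were higher as a share in SUP. Eomes was at 0 reads in both HT22 libraries, and Hes5 and Pax6 were at 0 in CON. The transcription factor gene Sox2 had 4 reads in SUP and 1 in CON, the fatty acid binding gene Fabp7 had 2 in each and the RNA-binding gene Msi1 37 and 53.

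**Figure D3:**
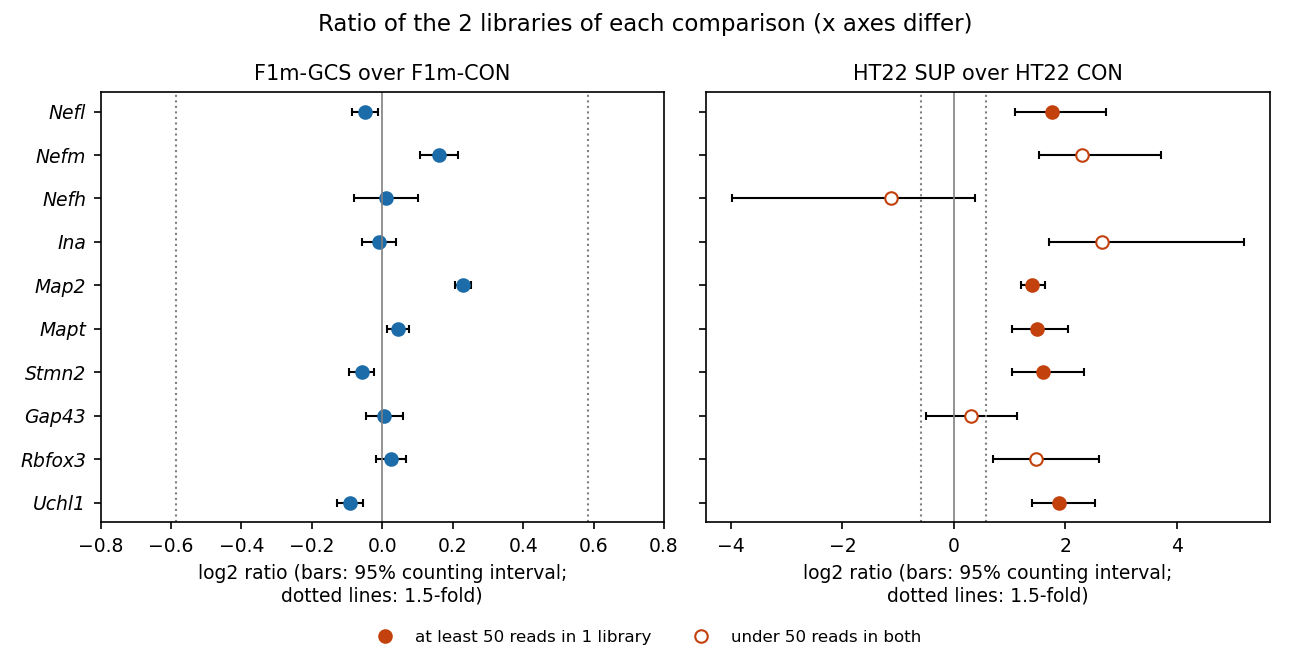
Log2 ratio of F1m-GCS to F1m-CON (left) and of HT22 SUP to HT22 CON (right) for the 10 genes, with 95% counting intervals. Filled points mark genes with 50 reads or more in either library and open points those with fewer. In hippocampus all points lie between -0.09 and 0.23, inside the dotted 1.5-fold lines, and in HT22 cells 8 intervals lie wholly above 0.

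In hippocampus the 10 genes stood close together in F1m-GCS and F1m-CON. All 10 were measured and 0 reached 1.5-fold, where 1.8% of 13392 measured genes were higher and 0.904% lower in F1m-GCS. The largest ratio was that of Map2, 0.23 (0.21 to 0.25), at percentile 88.0 of measured genes. Nefm had 0.16 (0.11 to 0.22) and Mapt 0.05 (0.01 to 0.08). Uchl1 had -0.09 (-0.13 to -0.06), Stmn2 -0.06 (-0.09 to -0.02) and Nefl -0.05 (-0.09 to -0.01). These 3 genes with higher and 3 with lower intervals stand beside 20.9% of measured genes with an interval wholly above 0 and 18.8% wholly below. Ratios followed coding length in these libraries, from a median of -0.09 in the shortest of 10 groups of genes to 0.11 in the longest. Relative to genes of similar length, Map2 had 0.12, Nefm 0.13, Mapt 0.01, Uchl1 -0.03 and Nefl -0.05, while Stmn2 turned to 0.03. The other 4 genes, Nefh, Ina, Gap43 and Rbfox3, had ratios between -0.01 and 0.03 with intervals that held 0, and for Nefh and Gap43 the sign changed with total counts in place of TMM scaling. Relative to genes of similar length Nefh had -0.04, Ina -0.01, Rbfox3 0.06 and Gap43 0.07, the last above its interval of -0.05 to 0.06. The median was 0.01, beside -0.0042 over all measured genes.

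The authors' deposited table gives log2 fold changes, p-values and false discovery rates for the 10 genes. No replicate libraries stand behind these values, so only the fold changes are set out here. For HT22 cells the log2 fold changes in the authors' deposited table were 0.70 for Nefl, 0.91 for Ina and 0.78 for Uchl1, smaller than the ratios above, while Nefh had -1.15, close to its ratio of -1.13. For a further comparison the ratios were taken from total counts, without TMM scaling or a prior count. The HT22 values of the authors' deposited table lay within 0.195 of such a log2 ratio of SUP to the mean of both HT22 libraries. From such a ratio of SUP to CON they lay up to 2.32 away, the gap of Ina, whose ratio was then 3.23. In hippocampus the authors' deposited table and the log2 ratio of the 2 libraries, again without TMM scaling or a prior count, differed by at most 0.0115 for these genes.

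The other intermediate filament genes divided into scarce and abundant ones in HT22 cells. Vim, which encodes vimentin of mesenchymal and immature cells, had 24577 reads in HT22 SUP and 35743 in HT22 CON, against 1514 in F1m-GCS and 1848 in F1m-CON, or 34.0 times the hippocampus level in SUP and 35.7 times in CON. The lamin gene Lmna stood at 35.6 times in SUP and 30.1 times in CON. Gfap, the astrocyte filament gene, had 14 reads in SUP and 8 in CON, against 13810 in F1m-GCS and 14824 in F1m-CON. Prph, which encodes the neuronal filament protein peripherin and was named after its values were seen, had 76 reads in SUP and 149 in CON, 3.25 and 4.59 times a low hippocampus level of 55 reads in F1m-GCS and 54 in F1m-CON. Of the 12 genes on this list, 7 exceeded the hippocampus level in each HT22 library, 5 lay under 5% of it in SUP and 4 in CON, and 0 of 6 measured were beyond 1.5-fold between the HT22 libraries.

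Not all genes on related lists were as scarce in HT22 cells as the 10. These lists go by gene family or function and are not restricted to genes specific to neurons. The 18 other microtubule-associated and stathmin genes had median shares of 15.0% in HT22 SUP and 13.6% in HT22 CON, and 5 lay under 5% in each. Tppp, a tubulin polymerisation promoter, stood at 1.11% in SUP and 0.730% in CON and the stathmin gene Stmn3 at 1.63% and 0.777%, while the doublecortin-like kinase gene Dclk1 stood at 15.8% and 16.2%. Of 16 measured members 5 were higher in SUP and 1 was lower. The lower one, named after its values were seen, was the neuronal beta-tubulin gene Tubb3, with 147 reads in SUP and 317 in CON, 4.73% and 7.36% of the hippocampus level, and a log2 ratio of -0.62 (-0.92 to -0.34). Axon growth and growth cone genes had median shares of 1.18% in SUP and 0.544% in CON, with 7 of 13 under 5% in each. Their 3 leading genes were common in HT22 cells, the growth cone gene Basp1 with 42.9% in SUP and 48.0% in CON, Marcksl1 with 57.5% and 59.5% and Marcks with 120% and 136%, the last 2 encoding substrates of protein kinase C. Of 7 measured members 1 was higher in SUP and 0 were lower. Neuronal RNA-binding and splicing genes had medians of 10.1% in SUP and 6.74% in CON. Rbfox1, a paralogue of Rbfox3, was at 0.531% in SUP and 0.237% in CON and Elavl3 at 0.882% and 0.430%, whereas Celf4 was at 10.6% and 8.76%. Of 8 measured members 1 was higher and 0 were lower.

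Other pan-neuronal genes had median shares of 2.24% in HT22 SUP and 1.5% in HT22 CON. Snap25, a component of the vesicle fusion machinery, had 2.35% in SUP and 1.03% in CON, the kinase gene Camk2a 2.04% and 0.760%, and the long non-coding RNA gene Snhg11 2.13% and 0.946%. All 12 were measured, and 5 were higher in SUP and 0 lower. Genes of this list at or above 5%, named after their values were seen, included the glycolytic enzyme gene Eno2 with 21.2% in SUP and 26.0% in CON, the surface glycoprotein gene Thy1 with 18.6% and 20.9%, and Vamp2 with 10.9% and 12.2% and Syn1 with 7.13% and 6.34%, the last 2 acting in synaptic vesicle release. The log2 ratios of these named genes, HT22 SUP to HT22 CON, lay between -0.29 and 0.18. For these 4 lists together, the share and the mean of 50 reads were again taken over both HT22 libraries. Of 9 genes under 5%, 7 were higher in SUP, as were 3 of 32 genes at 5% or more. A further 13 genes under 5% had fewer reads, and this split too was made on the HT22 levels, so the counts are a description. In hippocampus 0 measured genes of these lists reached 1.5-fold.

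**Figure D4:**
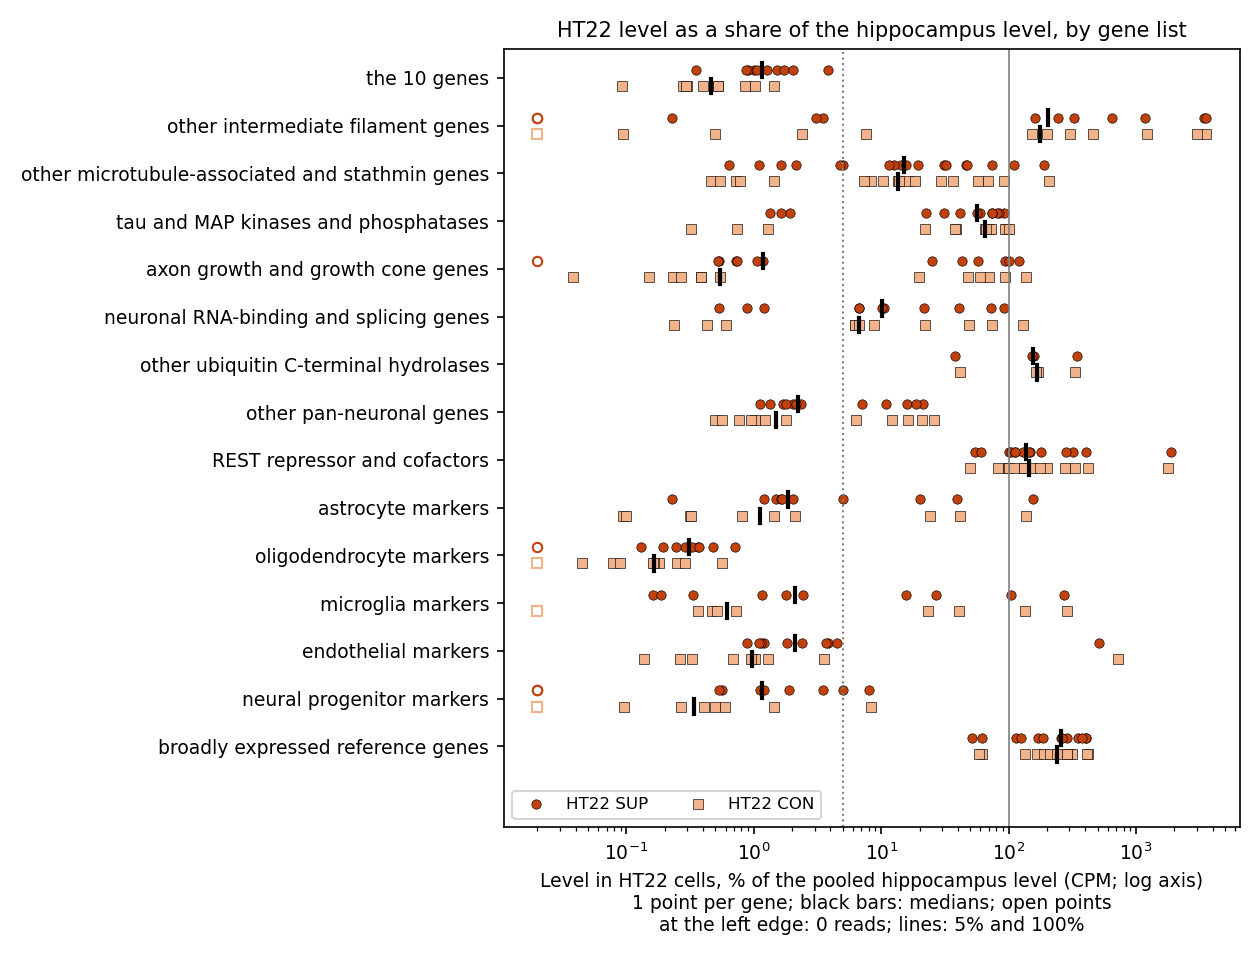
Level in HT22 SUP (circles) and HT22 CON (squares) as a percentage of the pooled hippocampus level, with 1 point per gene, on a log axis, by gene list. The 10 genes, with medians of 1.17% in SUP and 0.461% in CON, lie wholly below 5%, as do the oligodendrocyte markers, while REST and its cofactors have medians of 138% in SUP and 144% in CON.

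REST is the repressor that holds many neuronal genes off in other cells, and it acts with corepressors and histone-modifying enzymes. Rest, named after its values were seen, had 1635 reads in HT22 SUP and 2164 in HT22 CON, against 201 in F1m-GCS and 204 in F1m-CON. This was 18.8 times the hippocampus level in SUP and 17.9 times in CON. Of the 14 genes on the list, 12 exceeded the hippocampus level in SUP and 11 in CON. Of its leading genes, the phosphatase gene Ctdsp2 was at 144% in SUP and 175% in CON and the histone deacetylase gene Hdac2 at 181% and 200%. Between the HT22 libraries 0 of 14 measured members were beyond 1.5-fold. The broadly expressed reference genes, which entered the scaling with all other genes, had medians of 257% in SUP and 238% in CON, with 0 of 13 beyond 1.5-fold. Among them Actb, the beta-actin gene, stood at 257% in SUP and 238% in CON, Ywhaz at 61.9% and 59.1% and Sdha at 51.4% and 62.1%.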

How the data were processed

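The series' design text names Trim Galore for trimming, TopHat2 for alignment to mm10, HTSeq for counting and edgeR for the comparisons; CASAVA 1.8 is added per the submitters' processing notes. Per the file headers, the deposited tables hold raw counts of reads per gene. They also hold the authors' RPKM, which divides each count by the length in the table and by the uniquely mapped reads. The log2 fold changes, log2 mean levels, p-values and false discovery rates in them were deposited by the authors, from edgeR. Lengths were multiples of 3 for 99.8% of protein-coding genes and are called coding lengths.

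Source names gave the hippocampus groups, and the choline dose in the titles gave the HT22 groups. Log2 ratios were computed from the counts within each table, with TMM scaling (edgeR 4.0.16, R 4.3.3) and a library-scaled prior count of 2. A gene was measured where either library held 50 reads or more, and called at 1.5-fold or more with a 95% interval excluding 0. Intervals are exact conditional (Clopper-Pearson); reads are not independent molecules, and the spread between animals or cultures is not in them. Levels across tables were set side by side from raw counts. In each list the 3 genes with the highest mean RPKM in hippocampus were named, and others are marked. Some genes that this rule takes, or that were at 0 reads, are not reported here. The 10 genes, lists, rules and alternatives were chosen with earlier results of these data known. The functions were tested on simulated counts. Sequences come from RefSeq and exon overlaps from GENCODE M21.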

Additional observations from a re-analysis of the deposited data

How the results depend on the processing

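With total counts, DESeq2 size factors, a prior count of 0.25 or 10, a correction by length group, a 2-fold limit or a whole interval beyond 1.5-fold, the counts of called genes were as reported, 0 in hippocampus and 5 in HT22 cells. With at least 10 reads 8 genes were called in HT22 cells and with at least 200 reads 1, since more or fewer genes were then measured. In hippocampus both limits gave 0. Of 2 settings added after the data were seen, a mean of at least 50 reads gave 4 in HT22 cells and no read minimum gave 8, with 0 in hippocampus for each. The median share ranged from 0.929% to 1.18% in HT22 SUP and from 0.406% to 0.464% in HT22 CON over either hippocampus library alone, 2 other scalings and the authors' RPKM. At a limit of 1% instead of 5%, 3 genes lay under it in HT22 SUP and 8 in HT22 CON. Of 50 recomputed log2 ratios in hippocampus 4 changed sign, those of Nefh and Gap43 with total counts and of Nefh and Stmn2 with the length correction, and of 50 in HT22 cells 0 did. Outside their intervals after the length correction were Map2, Mapt, Stmn2, Uchl1 and Gap43 in hippocampus, the last at 0.07. With a prior count of 10 the HT22 ratio of Ina was 1.66. No paired analysis was possible because each group held 1 library, and for the same reason no library could be left out. Reads in HT22 cells limit these values: 5 of the 10 genes had fewer than 50 in both libraries.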

Other observations

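Enzymes that act on the products of these genes stood closer to the hippocampus level in HT22 cells. The 13 kinases, kinase activators and phosphatases of tau and other microtubule-associated proteins had median shares of 56.2% of the hippocampus level in HT22 SUP and 65.9% in HT22 CON, and 0 of 11 measured members were beyond 1.5-fold between the HT22 libraries. The phosphatase catalytic subunit gene Ppp2ca stood at 83.9% in SUP and 94.5% in CON and the kinase gene Gsk3b at 41.9% and 37.9%, while Cdk5r1, the neuronal activator of the kinase CDK5, stood at 1.91% and 1.29%. The 4 other ubiquitin C-terminal hydrolase genes had medians of 155% in SUP and 167% in CON, with Uchl5 at 343% and 334%, Uchl4 at 152% and 164% and Bap1 at 38.2% and 41.4%, against 2.02% and 0.524% for Uchl1.

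By the distance between centred log2(CPM + 0.5) profiles over the 4 libraries, the 5 genes most like the median profile of the 10, among 14002 genes, were Ntrk2 at 0.151, Cap2 at 0.156, Fam49a at 0.163, Syt1 at 0.164 and Gpm6a at 0.165. Among the 10 genes the distance ran from 0.169 for Mapt to 1.55 for Nefh. Ntrk2, the receptor of a brain neurotrophin, had 139 reads in HT22 SUP and 71 in HT22 CON, against 22786 in F1m-GCS and 24151 in F1m-CON. With 4 libraries this likeness is a description.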
